A study of Mus musculus with 12 samples.

Results

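Interferon-induced genes were followed across the cells of PyMT breast tumors. The list named 40 genes by symbol, with no threshold on a measured value in the rule, and 39 of them were analysed among the 31053 genes of each matrix. *Mx2* was not analysed here. The genes were grouped by role into 9 groups, from the IFIT proteins and the 2′-5′-oligoadenylate synthetases (OAS) to the immunity-related and guanylate-binding GTPases.

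The study compared tumors of PyMT-PAR2 WT mice with those of the PyMT-PAR2 G37I strain. In that strain protease-activated receptor 2 carries a point mutation that makes it resistant to coagulation factor Xa. Single-cell RNA-seq on the 10x Genomics platform was run on 12 samples, 3 of each genotype for CD11c-selected cells and 3 of each for CD4/CD8-selected cells. Cells were bead selected from digested tumors, from late-stage tumors for CD11c and mid-size tumors for CD4/CD8, and frozen before capture.

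Both genotypes were on a C57BL/6 background and carried the MMTV-PyMT transgene, in which a mouse mammary tumor virus promoter drives polyoma middle T antigen in the mammary epithelium, so tumors arose spontaneously in female mice. No further treatment was given, and the labels state no age. The deposited matrices held the 6 samples of each selection together, and no barcode carried a sample name. Each matrix was therefore treated as 1 sample, no value below was assigned to a genotype, and no p-values are given.

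The matrices held 123642015 UMIs (unique molecular identifiers, each standing for 1 captured mRNA molecule) in 11639 CD11c-selected cells and 135965765 UMIs in 22806 CD4/CD8-selected cells. The barcodes of each matrix ran through the alphabet 6 times, and these stretches are called runs. They held 13314063 to 24231244 UMIs each in the CD11c matrix and 16203038 to 30168668 in the CD4/CD8 matrix, and none was linked to a sample. Runs of 1 matrix repeated 76 and 51 barcodes, and 92 barcodes occurred in both matrices. Cell types were gated on a few raw marker counts, which left 29.1% of CD11c-selected and 10.2% of CD4/CD8-selected cells without a type. None of the 5 or 6 further markers checked per type was at 0 in its own type. Of 5 markers, the gated type held the highest level of only 2 for cDC2 and of 3 for cDC1 and CD11c-selected macrophages, and of 6 markers it held 3 for monocytes. Macrophage transcripts (*Apoe*, *Csf1r*, *Lyz2*, *C1qa*) stood in CD8 T cells at 0.172% to 0.235% of their macrophage level in the CD4/CD8 matrix. In the other direction T cell transcripts (*Trac*, *Trbc2*, *Cd2*, *Cd8a*) stood in its macrophages at 0.298% to 1.15% of their CD8 T cell level.

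Interferons are secreted proteins that cells release on sensing viral or damaged nucleic acid (type I) or that activated lymphocytes release (IFN-γ, type II). Type I interferon signals through IFNAR1 and IFNAR2 to a transcription factor complex that binds the interferon-stimulated response element. IFN-γ signals through IFNGR1 and IFNGR2 to factors that bind the γ-activated site, and both routes induce partly shared sets of antiviral and antigen-presentation genes, which in tumors are read as a sign of interferon exposure.

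Proximal promoters were searched for these motifs first, since the genes below differed in the cells that held them. RefSeq promoters (GRCm38.p6, 250 bases before to 50 after the start) were found for 30 of the 39 genes. The letters GAAA-NN-GAAA, the core of the interferon-stimulated response element, were present on either strand in 18 of the 30 genes (60%), against 3.99% of 27025 genes with a promoter. The letters TTCNNNGAA, the γ-activated site, were present in 9 (30%) against 9.55%, and the search allowed the motifs to overlap. GAAA-NN-GAAA was found in 5 of the 9 matched genes that led in T cells (defined below), in 2 of 5 that led in macrophages and in 11 of 16 that led in neither. The promoters of 2 T cell-leading and 2 macrophage-leading genes that held it are shown because they stood on opposite sides of the comparison of cell types. Capitals mark GAAA-NN-GAAA or its reverse complement.
Ifit3: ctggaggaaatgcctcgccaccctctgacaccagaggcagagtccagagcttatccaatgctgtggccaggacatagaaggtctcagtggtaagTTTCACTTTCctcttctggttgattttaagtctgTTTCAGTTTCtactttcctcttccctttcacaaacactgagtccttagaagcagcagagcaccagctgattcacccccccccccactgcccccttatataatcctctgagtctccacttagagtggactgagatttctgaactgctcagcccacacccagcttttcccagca
Igtp: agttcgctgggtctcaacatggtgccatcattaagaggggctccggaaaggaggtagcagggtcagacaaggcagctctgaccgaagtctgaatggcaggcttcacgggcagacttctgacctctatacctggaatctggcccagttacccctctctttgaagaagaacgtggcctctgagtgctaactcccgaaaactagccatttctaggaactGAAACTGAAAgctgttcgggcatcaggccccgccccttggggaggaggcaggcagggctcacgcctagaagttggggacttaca
Bst2: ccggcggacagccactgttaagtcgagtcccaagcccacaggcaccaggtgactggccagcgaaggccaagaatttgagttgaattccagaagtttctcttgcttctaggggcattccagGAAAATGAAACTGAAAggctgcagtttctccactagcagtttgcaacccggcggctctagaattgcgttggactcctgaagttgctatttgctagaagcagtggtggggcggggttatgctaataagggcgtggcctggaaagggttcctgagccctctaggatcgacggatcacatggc
Slfn5: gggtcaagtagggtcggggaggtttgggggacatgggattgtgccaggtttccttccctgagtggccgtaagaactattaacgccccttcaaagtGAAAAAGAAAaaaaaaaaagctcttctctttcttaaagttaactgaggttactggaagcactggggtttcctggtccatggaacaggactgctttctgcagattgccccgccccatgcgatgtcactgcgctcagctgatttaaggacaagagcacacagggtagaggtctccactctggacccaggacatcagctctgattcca
They lie at chr19:34583279-34583578 (plus strand), chr11:58199306-58199605 (plus), chr8:71537423-71537722 (minus) and chr11:82951852-82952151 (plus). The motif began 156 and 122 bases before the start in *Ifit3*, 34 in *Igtp*, 130 and 124 in *Bst2*, where both copies overlap, and 155 in *Slfn5*. These promoters were picked for holding the letters, so they do not compare the groups, whose counts are given above. A match describes the sequence and does not show that a factor binds there.

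On GRCm38 (GENCODE M21) the 39 genes lie on 13 chromosomes. All 4 IFIT genes sit within chr19:34550694-34650009, and *Gbp2*, *Gbp3*, *Gbp5* and *Gbp7* within chr3:142493978-142638008, while *Gbp4* lies apart on chromosome 5. In 4 genes more than 10% of the 50-base words in the last 500 transcript bases also occurred in another gene, so their counts may be affected. These were *Oas1a* (56.1%, mostly *Oas1g*), *Phf11b* (42.6%, *Phf11c*), *Gbp4* (19.4%, *Gbp6*) and *Ifit3* (14.9%, *Ifit3b*). The 7 genes that overlap another gene on the same strand were *Herc6*, *Igtp*, *Ifi47*, *Gbp4*, *Gbp7*, *Parp14* and *Rtp4*.

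CD8 T cells and macrophages differed little in the summed level of the genes but held different members of the list at high levels. The summed level, in UMIs per 1000000 UMIs of all genes (CPM), was 3414 in 16813 CD8 T cells (exact 95% Poisson interval, 3402 to 3426). It was 3296 in 6005 CD11c-selected macrophages (3283 to 3309) and 3026 in 896 macrophages of the CD4/CD8 matrix (3001 to 3052). These intervals, like all below, cover counting error only. *Ifi27l2a*, a short hydrophobic protein induced by type I interferon, gave 35.4% of the UMIs in CD8 T cells and 32.4% in CD11c-selected macrophages. Without it the sums were 2205 in CD8 T cells, 2230 in CD11c-selected macrophages and 2241 in the macrophages of the other matrix. *Ifi27l2a*, *Bst2* and *Isg15* together gave 48.8%, 57.5% and 63.8% of the UMIs in the same order, so a few members weighed most in the sums. *Bst2* stood at 259 CPM in CD8 T cells against 657 and 1052 in macrophages, and sums without *Bst2* were not computed. The ratio of the full sums was 1.04 across matrices and 1.13 within the CD4/CD8 matrix. It was 1.31 and 1.48 when mitochondrial and ribosomal protein genes were left out of the totals.

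**Figure D1:**
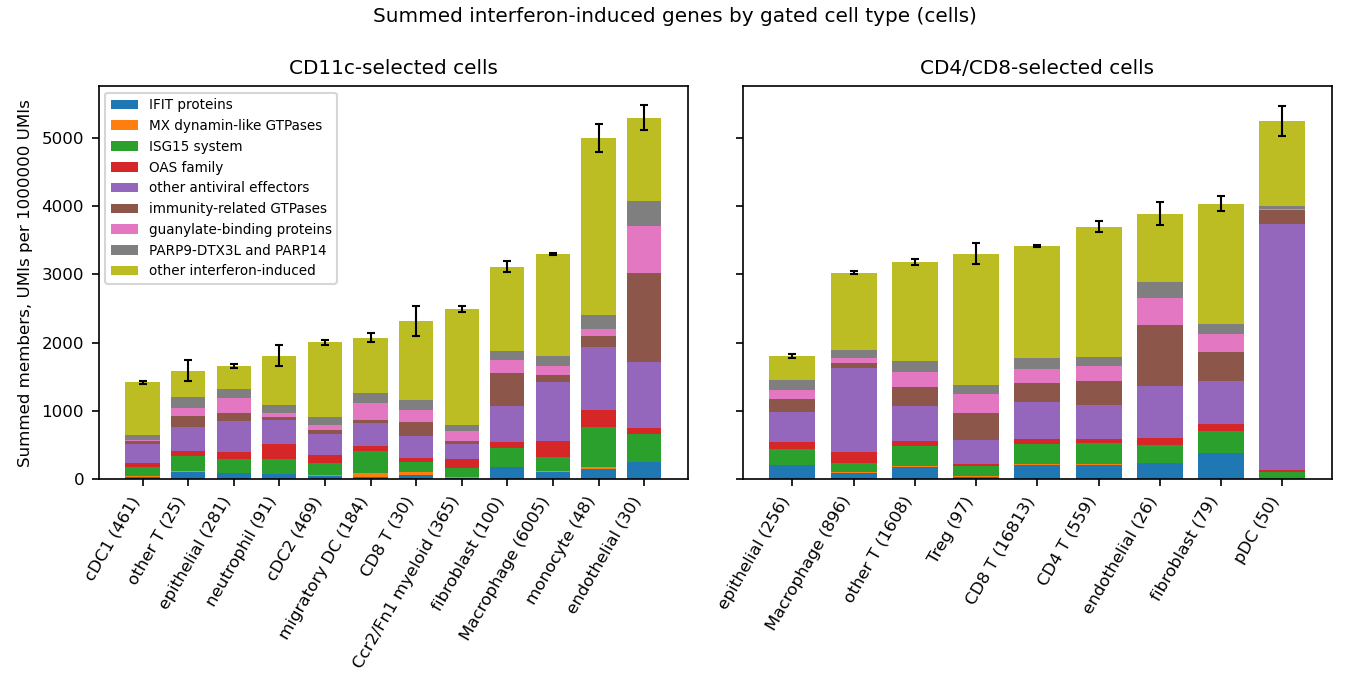
Summed level of the 39 genes (CPM, linear axis from 0) in each gated cell type (cells in parentheses), with 1 panel per matrix, bars stacked by the 9 role groups and error bars for exact 95% Poisson intervals of the sum. Endothelial cells of the CD11c matrix (5299), pDCs of the CD4/CD8 matrix (5246) and monocytes of the CD11c matrix (4999) stood highest and cDC1s (1418) lowest. Endothelial cells of the CD4/CD8 matrix stood at 3890.

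Within the CD4/CD8 matrix the other T cells stood near these levels. CD4 T cells (559 cells) held 3703 CPM, Tregs (97 cells) 3301, and T cells with neither co-receptor alone (1608 cells) 3184. The few T cells of the CD11c matrix stood lower, at 2315 in 30 CD8 T cells and 1586 in 25 other T cells. Dendritic cells stood lower in the CD11c matrix, at 1418 in 461 cDC1s, 2004 in 469 cDC2s and 2072 in 184 migratory DCs. The highest sums rested on few cells. These were 30 endothelial cells of the CD11c matrix (5299, 5116 to 5487), 50 plasmacytoid DCs of the CD4/CD8 matrix (pDCs; 5246, 5034 to 5464) and 48 monocytes of the CD11c matrix (4999, 4795 to 5209). Intervals of these endothelial cells and pDCs overlap, as do those of pDCs and monocytes. The 26 endothelial cells of the CD4/CD8 matrix stood lower, at 3890 (3719 to 4067). Epithelial cells held 1665 in the CD11c matrix and 1800 in the CD4/CD8 matrix.

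The members that led in T cells and in macrophages were then listed. A gene was said to lead in T cells when its level in CD8 T cells was at least 2-fold that of the macrophages of each matrix, and to lead in macrophages when it was at least 2-fold lower in both. Both comparisons share the same CD8 T cells. The labels concern this pair of cell types only, and other types could stand higher. In the CD4/CD8 matrix *Ifit1*, which led in T cells, stood at 273 CPM in fibroblasts and 84.8 in CD8 T cells. *Ifi44*, which led in macrophages, stood there at 106 CPM in endothelial cells and 11.1 in macrophages. Against CD11c-selected macrophages, 10 of 38 genes with a mean level of 5 CPM or more were 2-fold higher in CD8 T cells, where 17.1% of all genes were, and 8 were 2-fold lower, where 22.4% were. Their median log2 ratio was 0.27, and that of all genes 0.03. Against macrophages of the same matrix 14 were higher (23.6% of all genes) and 6 lower (22.4%), with a median of 0.71 against 0.17 for all genes. In both comparisons 10 of 38 led in T cells (26.3%, against 16.3% of all genes) and 6 led in macrophages (15.8%, against 18.9%). The share leading in macrophages was thus near that of all genes and does not set the list apart. The genes of both groups are given below by their values.

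The T cell-leading genes were *Ifit1*, *Ifit3*, *Ifit3b*, *Herc6*, *Isg20*, *Samd9l*, *Igtp*, *Ifi47*, *Gbp4* and *Gbp7*. The macrophage-leading genes were *Oas2*, *Oasl1*, *Oasl2*, *Bst2*, *Ifi44* and *Slfn5*. Within the CD4/CD8 matrix, where both cell types were present in each run, all 10 were higher and all 6 lower in CD8 T cells in 6 of 6 runs. The genes were chosen on the same cells summed over these runs, so this count is not separate support for the list. No share of all genes is given beside it. Leaving out mitochondrial and ribosomal protein genes from the totals moved the median log2 ratio of all genes from 0.03 to 0.39 across matrices and from 0.17 to 0.57 within the CD4/CD8 matrix. *Mx1*, *Oas3* and *Ifi35* then also led in T cells, and *Bst2* no longer led in macrophages. With ratios centered on the median of all genes, *Ifit1* and *Gbp7* no longer led in T cells and *Rsad2* led in macrophages.

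**Figure D2:**
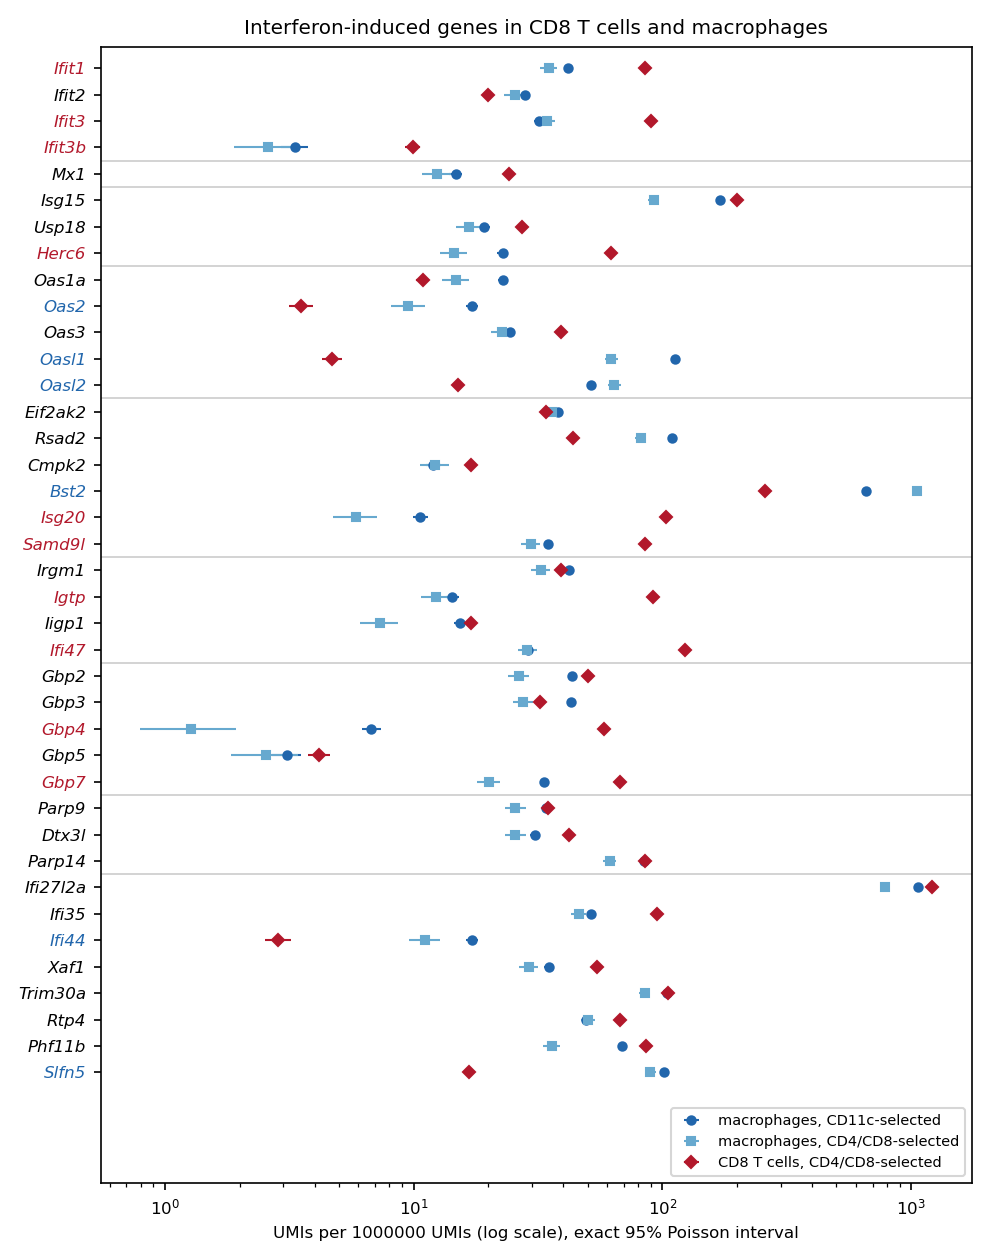
Level of each member (CPM, log axis) in CD8 T cells and in the macrophages of both matrices, with exact 95% Poisson intervals, ordered by role, with red gene names for the 10 that led in T cells and blue names for the 6 that led in macrophages. The points of *Isg20*, *Igtp* and *Gbp4* lie far to one side for T cells, and those of *Oasl1*, *Ifi44* and *Slfn5* to the other.

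Among the IFIT proteins, which bind viral RNA and block its translation, 3 of 4 led in T cells. *Ifit1* stood at 84.8 CPM in CD8 T cells against 41.8 in CD11c-selected macrophages and 34.9 in the other macrophages, ratios of 2.03 (1.94 to 2.11) and 2.42. *Ifit3* stood at 89.9 against 31.8 and 34.2 (2.82-fold and 2.62-fold), and *Ifit3b*, its near copy, at 9.90 against 3.33 and 2.61. *Ifit1* had the widest spread of these within the CD4/CD8 matrix, with ratios from 1.76 to 24.5 over the runs, since macrophages of run 1 (31 cells) held none of its UMIs. *Ifit2* was the exception at 20 CPM in CD8 T cells and 28.1 and 25.5 in macrophages, a ratio of 0.71 to 0.78.

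In the ISG15 system, *Isg15* (a ubiquitin-like modifier), *Usp18* (the protease that removes it) and *Herc6* (the mouse ligase that attaches it), *Herc6* led in T cells. It stood at 62.0 CPM against 22.8 and 14.5 in the macrophages. *Isg15* was 1.17-fold and 2.16-fold higher in CD8 T cells, and *Usp18* 1.41-fold and 1.63-fold. *Mx1*, of the MX family of dynamin-like GTPases, stood at 24.1 CPM against 14.8 and 12.4, short of 2-fold in both.

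The OAS family, enzymes and relatives that sense double-stranded RNA, was weighted to macrophages, with 3 of 5 leading there and none in T cells. *Oasl1*, which restrains translation of *Irf7*, had the widest difference of the list in this direction. It stood at 4.70 CPM in CD8 T cells against 113 in CD11c-selected macrophages, 23.9-fold lower (21.8 to 26.5), and against 62.2 in the macrophages of its own matrix, 13.2-fold lower (11.8 to 14.8). Over the 6 runs of the CD4/CD8 matrix it was 11.4-fold to 25.5-fold lower. *Oasl2* was 3.43-fold and 4.25-fold lower in CD8 T cells, and *Oas2* 4.88-fold and 2.70-fold lower. *Oas1a* was 2.10-fold lower against CD11c-selected macrophages only, and *Oas3* was 1.60-fold and 1.71-fold higher.

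The remaining antiviral effectors were split. *Isg20*, an RNA exonuclease, stood at 103 CPM in CD8 T cells against 10.7 and 5.85 in macrophages, 9.70-fold (9.04 to 10.5) and 17.5-fold (14.5 to 21.7) higher and 7.99-fold to 35.3-fold over the runs. *Samd9l*, a translation inhibitor, was 2.46-fold and 2.88-fold higher. *Bst2* (tetherin, which holds budding virions on the cell surface) stood at 259 CPM in CD8 T cells against 657 and 1052, 2.53-fold and 4.06-fold lower. *Rsad2* (viperin) was 2.50-fold lower against CD11c-selected macrophages and fell short of 2-fold within the CD4/CD8 matrix, where 2 of 6 runs went the other way. *Eif2ak2* (the kinase PKR) and *Cmpk2* differed by under 2-fold in both comparisons.

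Of the GTPases that act on intracellular pathogens, 2 of 4 immunity-related GTPases and 2 of 5 guanylate-binding proteins led in T cells and none in macrophages. Of the former, *Igtp* (Irgm3) stood at 91.5 CPM against 14.3 and 12.3 (6.38-fold, 5.99 to 6.81, and 7.38-fold) and *Ifi47* (Irgd) at 123 against 28.7 in each macrophage group (4.29-fold in both). *Irgm1* stood at 39.0 CPM against 41.9 and 32.4, and *Iigp1* was 2-fold higher only within the CD4/CD8 matrix. The *Iigp1* ratio was not steady over the runs of that matrix. It ranged from 0.446 to 8.08 (run 3), with a median of 1.01, and was above 1 in 3 of the 6 runs. Of the latter, *Gbp4* stood at 58.1 CPM in CD8 T cells against 6.76 and 1.27, 8.58-fold (7.84 to 9.43) and 43.6-fold (30.1 to 72.8) higher. The last ratio rests on 22 *Gbp4* UMIs in macrophages of the CD4/CD8 matrix and ranged from 9.98 to 124 over the runs. *Gbp7* was 2.01-fold and 3.34-fold higher, and *Gbp2*, *Gbp3* and *Gbp5* did not reach 2-fold in either comparison.

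None of *Parp9*, *Dtx3l* and *Parp14*, an ADP-ribosyltransferase and ligase group, led in either cell type, with ratios from 1.01 to 1.63. Of the other induced genes, *Slfn5*, a Schlafen family protein, stood at 16.7 CPM in CD8 T cells against 102 and 89.2 in macrophages, 6.07-fold and 5.33-fold lower. *Ifi44* stood at 2.86 against 17.2 and 11.1, 6-fold and 3.88-fold lower. *Ifi27l2a*, *Xaf1*, *Trim30a* and *Rtp4* were within 2-fold in both comparisons, while *Ifi35* and *Phf11b* were 2-fold higher in CD8 T cells only within the CD4/CD8 matrix. Over its runs the ratio of *Ifi35* ranged from 1.64 to 2.80. That of *Phf11b* ranged from 0.795 to 5.54 (run 3), with a median of 1.35.

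A further comparison lay within the CD11c matrix, whose 75 T cells held 1424 UMIs of the list. Against the macrophages around them 4 of 37 genes were 2-fold higher (25% of all genes) and 8 lower (12.1%), with a median log2 ratio of -0.45 against 0.36 for all genes. The 4 were *Herc6*, *Isg20*, *Igtp* and *Gbp4*, all of which led in CD8 T cells. *Igtp* stood at 98.0 CPM in these T cells, 6.94-fold above macrophages (5.23 to 8.81). The 8 were *Ifit2*, *Oas1a*, *Oas2*, *Rsad2*, *Cmpk2*, *Bst2*, *Ifi44* and *Rtp4*, of which 3 led in macrophages. *Oasl1* was not among them, at 72.0 CPM, from 47 UMIs in 5 of the 75 cells with 20 in a single cell. In run 1, 3 cells held 12.9%, 12.6% and 10.7% of the UMIs of the list in these T cells. Without run 1 the number 2-fold lower was 18, and macrophage genes stood in these T cells at 0.336% to 2.24% of their macrophage level.

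Within the CD11c matrix the other myeloid types mostly held less than macrophages. Among cDC1s, which cross-present antigen, 20 of 36 genes were 2-fold lower (16.1% of all genes) and none higher (8.30%). *Rtp4*, a chaperone of receptor transport, was 23.6-fold lower (15.2 to 44.9), *Gbp7* 18.3-fold and *Oas2* 14.6-fold. In cDC2s 10 of 37 were lower (14.1%) and none higher (6.27%), led by *Iigp1* (9.37-fold) and *Rsad2* (5.59-fold). In *Ccr2*/*Fn1* myeloid cells 14 of 37 were lower (9.38%) and none higher (5.38%), led by *Iigp1* (27.6-fold, 11.4 to 342) and *Ifit3* (12.2-fold). *Bst2*, *Iigp1*, *Ifit3*, *Rsad2* and *Cmpk2* were at least 2-fold lower than in macrophages in all 3 of these types.

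Migratory DCs, which carry antigen to lymph nodes, had 6 of 38 genes higher, 15.8% against 13.5% of all genes, and 17 lower (25% of all genes). The share higher was thus near that of all genes, and the 6 genes are given by their values. *Gbp5*, which promotes inflammasome assembly, stood at 35.6 CPM against 3.09 in macrophages, 11.6-fold higher (8.61 to 15.2). *Gbp4* was 4.77-fold, *Mx1* 4.45-fold, *Gbp2* 3.48-fold, *Herc6* 2.51-fold and *Phf11b* 2.01-fold higher. The guanylate-binding proteins were not all on one side, since *Gbp7* was 7.77-fold lower in the same cells. *Oas1a*, *Oas2*, *Oas3*, *Oasl1* and *Oasl2* were all at least 2-fold lower.

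Types with under 100 cells, or from outside the immune compartment, showed other members. Ratios here were set against the macrophages of the same matrix, for the highest ratios among genes with 20 or more UMIs. In 30 endothelial cells *Iigp1* (Irga6, which acts on parasite vacuoles) stood at 803 CPM, 52.1-fold above macrophages (46.7 to 58.0), and *Gbp4* at 236 CPM, 35.1-fold. Endothelial cells of the CD4/CD8 matrix (26 cells) gave the same pair, *Iigp1* at 569 CPM (77.5-fold) and *Gbp4* at 132 CPM (101-fold). *Iigp1* was also the highest-ratio member in fibroblasts of both matrices, at 303 CPM (19.7-fold) and 246 CPM (33.6-fold), and in epithelial cells of the CD4/CD8 matrix at 66.8 CPM (9.09-fold). *Slfn5* in fibroblasts stood at 428 CPM, above its macrophage level by 4.21-fold. Epithelial cells of the CD11c matrix led with *Gbp2* at 164 CPM (3.81-fold). pDCs held *Ifi47* at 118 CPM (4.18-fold) and *Bst2*, also a pDC surface marker in the mouse, at 3536 CPM (3.36-fold), and 3 genes gave 87.2% of their sum. Monocytes held *Isg15* at 498 CPM (2.92-fold). In Tregs and CD4 T cells *Igtp* stood 17.8-fold and 12.1-fold above macrophages, and in CD4 T cells *Gbp4* stood 45.6-fold above.

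Levels also differed between runs, and the runs that stood apart differed between cell types. In CD8 T cells the sums over runs 1 to 6 were 3633, 2550, 5743, 3400, 2421 and 3022 CPM, a 2.37-fold range. Between the lowest and the highest run 26 of 35 members differed at least 2-fold, where 11.4% of all genes did, and the median fold was 2.35 against 1.44. Run 3 held the highest level of 32 of the 35 (31.4% of all genes were highest there). Without run 3, 9 of 35 members differed 2-fold (8.59% of all genes) and the sums spanned 1.5-fold, so the count rested on run 3. Those 9 were *Ifit1*, *Ifit3*, *Ifit3b*, *Isg15*, *Oasl2*, *Cmpk2*, *Iigp1*, *Rtp4* and *Slfn5*.

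By run, *Slfn5* stood at 12.3, 12.4, 35.5, 15.1, 6.21 and 18.5 CPM in CD8 T cells. *Ifit1* stood at 95.2, 42.0, 179, 89.4, 44.3 and 70.1, and *Ifit3* at 97.9, 56.8, 187, 95, 44.2 and 72.1. The IFIT pair had run 3 highest and runs 2 and 5 lowest. *Ifit3b* stood at 10.1, 5.55, 22.4, 10.5, 4.03 and 8.27, and *Ifi44*, below 5 CPM on average, at 2.54, 2.41, 4.83, 2.79, 0.839 and 3.33. *Igtp* was an exception, with 108, 63.7, 96.4, 87.5, 73.2 and 105 CPM and its highest level in run 1. Among the other cells of run 3, CD4 T cells (20 cells) also had their highest sum there, 4708 CPM against 2664 to 3872 in the other runs. Other T cells (3544 CPM), macrophages (3093) and epithelial cells (1398) did not, and epithelial cells reached 4528 in the 24 cells of run 1.

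**Figure D3:**
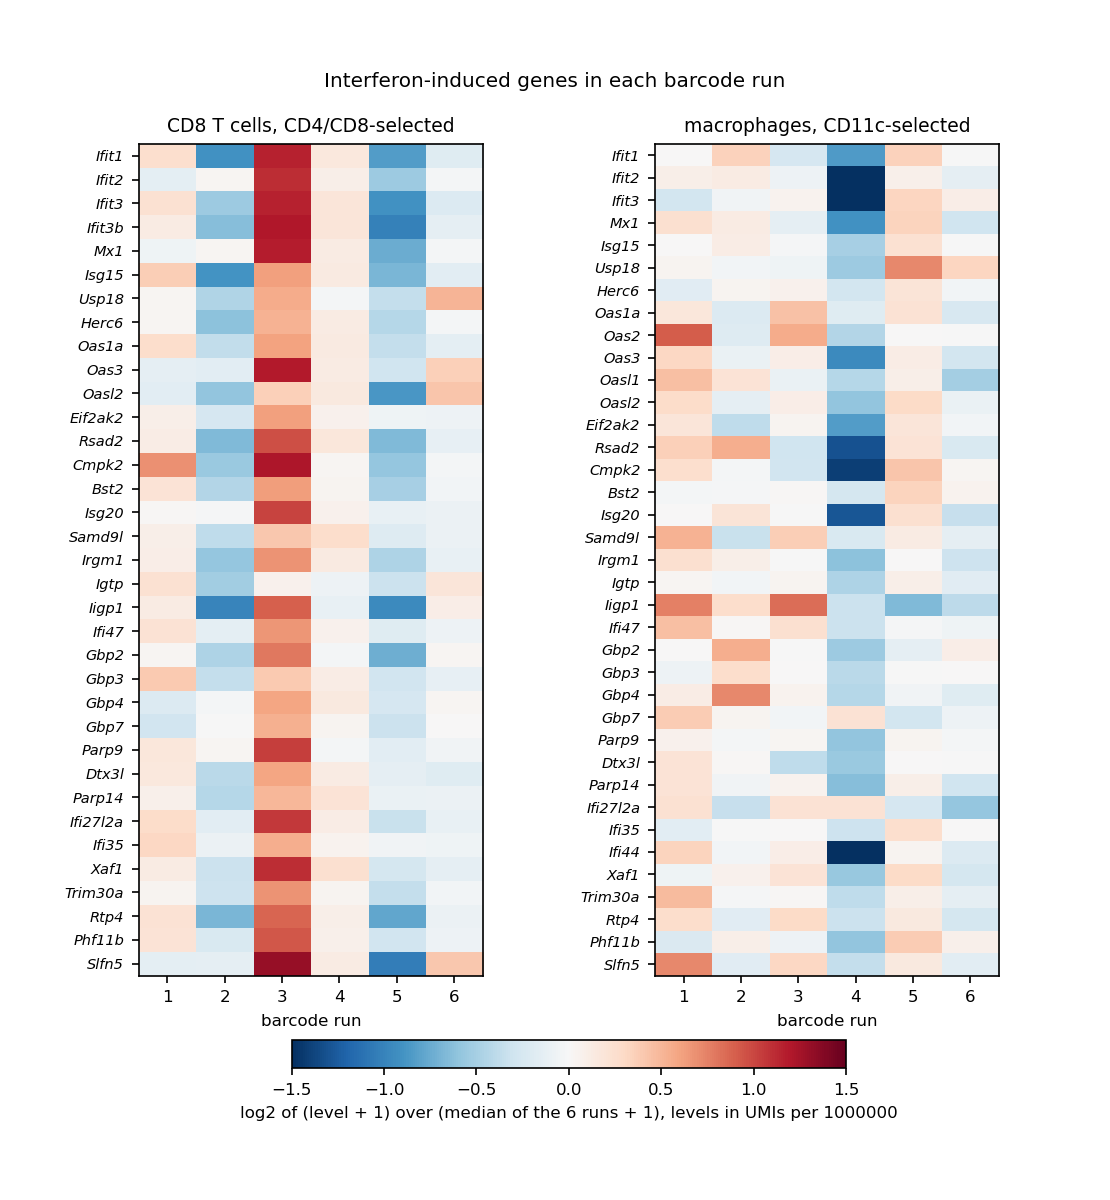
Level of each member with a mean of at least 5 CPM in each run relative to its median over the 6 runs (log2, with 1 CPM added to both, color scale saturating at ±1.5) for CD8 T cells (left, 35 members) and CD11c-selected macrophages (right, 37 members). The third column of CD8 T cells is high for most members. The fourth column of CD11c-selected macrophages is low for most members, among them the IFIT genes, *Ifi44* and *Cmpk2*.

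CD11c-selected macrophages varied less, with sums of 3819, 3183, 3585, 2899, 3506 and 2854 CPM. Of 37 members 16 differed at least 2-fold between runs (9.68% of all genes), with a median fold of 1.87 against 1.42. *Ifit2* stood at 32.8, 33.7, 29.1, 6.41, 32.6 and 28.1 CPM over the runs, and *Ifi44* at 23.7, 18.1, 20.1, 4.55, 19.1 and 16.0. *Ifit3* stood at 27.4, 31.9, 34.6, 9.51, 41.9 and 35.6, and *Cmpk2* at 14.6, 11.8, 9.70, 3.93, 16.5 and 12.4. All 4 were lowest in run 4, which held 264 macrophages against 803 to 1510 in the other runs. Most other members were also lowest there, among them *Isg15*, *Rsad2* and *Bst2*, though *Oasl1*, *Iigp1* and *Gbp7* were not. The share of all genes lowest in run 4 was not computed. Run 4 also held 13314063 UMIs in only 360 cells, against 17772182 to 24231244 UMIs in 1561 to 2784 cells in the others, so its UMIs per cell were higher, and the part of this in the levels was not tested. Without run 4, 3 of 37 members differed 2-fold (6.19% of all genes), namely *Oas2*, *Iigp1* and *Gbp4*. *Ifi27l2a* did not follow the genes lowest in run 4, at 1337 CPM in run 4 and 769 to 1350 over the 6 runs. Without *Ifi27l2a* the sum of the list was lowest in run 4, at 1562 CPM against 2084 to 2539 in the other runs. In the macrophages of the CD4/CD8 matrix, 31 to 468 cells a run, 30 of 36 members differed 2-fold where 52.5% of all genes did, and 17 did without run 5 (48.4%).

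Per cell, the UMIs of the list were spread unevenly. Each cell was thinned to 2000 UMIs, and cells with 10 or more from the list (0.5%) were counted. The share was 22.6% of CD8 T cells (exact Clopper-Pearson 95% interval, 22.0 to 23.3), 21.8% of CD11c-selected macrophages (20.7 to 22.9) and 20.2% of macrophages in the CD4/CD8 matrix (17.6 to 23.1). Before thinning, the shares at 0.5% or more were 20.1%, 19.2% and 15.8%, and thinning left out 1062, 299 and 31 shallower cells. It was 4.63% of cDC1s, 8.83% of cDC2s, 8.05% of migratory DCs and 10.6% of *Ccr2*/*Fn1* myeloid cells, and 48.0% of the 50 pDCs (33.7 to 62.6). Across CD8 T cells the variance of the thinned count was 12.1 times its mean, and across CD11c-selected macrophages 7.39 times, where counting error alone gives about 1. pDCs were the most even, at 1.87 times. By run the share was 22.6, 14.4, 43.9, 20.6, 13.4 and 18.8% of CD8 T cells, and 28.5, 20.6, 24.3, 19.7, 22.8 and 15.3% of CD11c-selected macrophages.

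**Figure D4:**
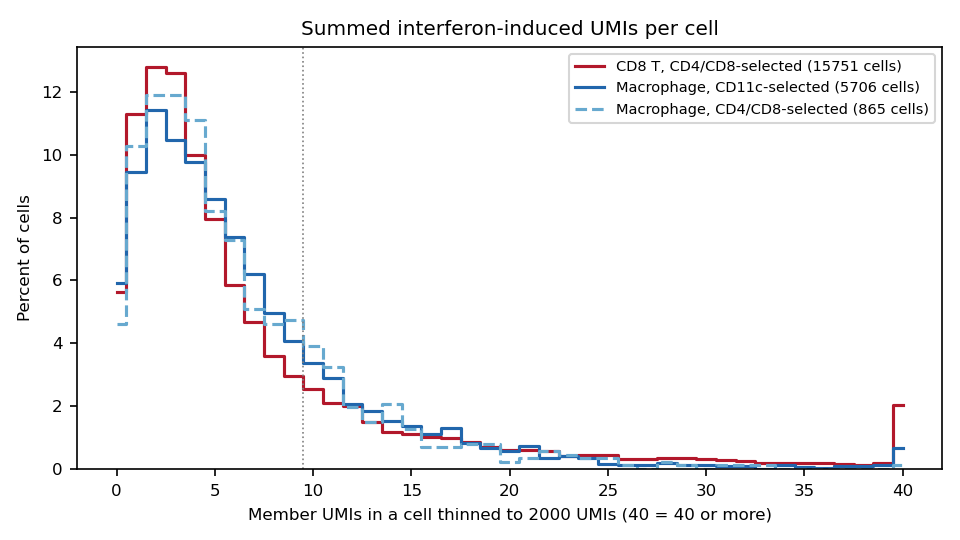
Distribution of the summed UMIs of the list per cell after thinning to 2000 UMIs, as percent of cells, for CD8 T cells and both macrophage groups, with the cut of 10 marked by a dotted line and cells at 40 or more pooled in the last bin. The 3 shares beyond the cut are 22.6, 21.8 and 20.2%.

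Members that led in T cells were detected more often in CD8 T cells that also held *Ifit3* or *Igtp*, though none in a majority of them. After thinning, 1754 of 15751 CD8 T cells held a UMI of *Ifit3* and 13997 did not. *Ifit1* was detected in 48.0% of the former (45.6 to 50.4) and 5.17% of the latter, 9.28-fold more often and 5.66-fold to 18.7-fold over the runs. *Ifit3b* was detected in 12% against 0.764%, although it shares sequence with *Ifit3*. The genes of other roles had smaller folds, *Herc6* at 32.4% against 7.65% (4.23-fold), *Gbp4* at 26.7% against 8.59%, *Igtp* at 35.2% against 12.8% (2.75-fold) and *Samd9l* at 30.1% against 13.6% (2.20-fold). With *Igtp* as the reference gene (2407 cells with a UMI, 13344 without) the folds ran from 1.43 for *Samd9l* to 4.17 for *Ifit3b*. All folds exceeded 1 in each of the 6 runs. Cells thinned to equal depth still differ in how total RNA is divided among genes, and the part of this in the folds was not tested. The same folds were not computed for genes outside the list. Of the gated types none is known to lack these genes. The levels of macrophage and T cell transcripts in the opposite cell type, given above, are the available background.

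**Figure D5:**
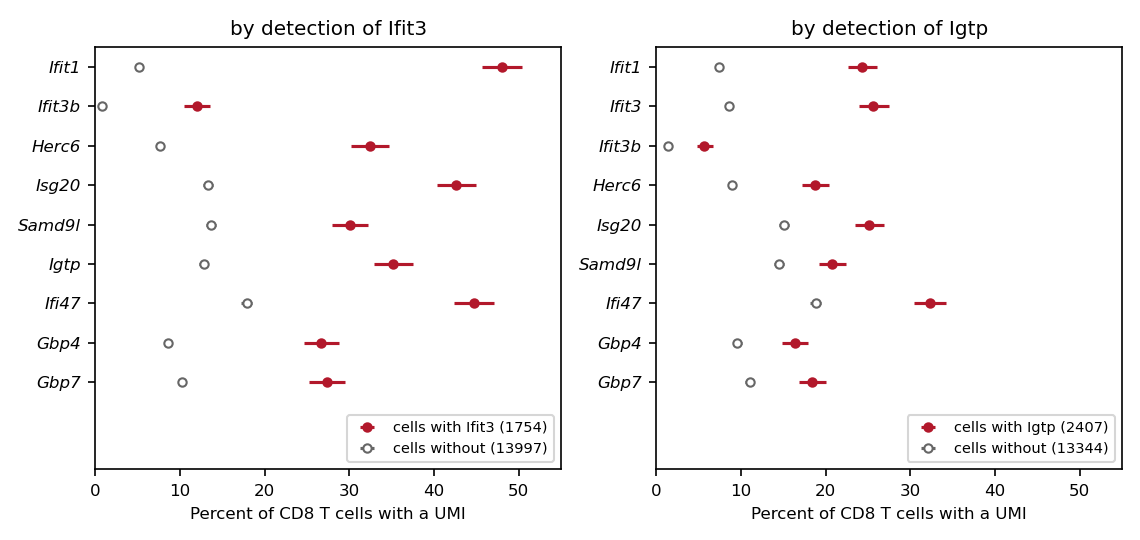
Percent of CD8 T cells, thinned to 2000 UMIs, with a UMI of each T cell-leading gene among cells with and without *Ifit3* (left) or *Igtp* (right), with exact 95% intervals. *Ifit1* shows the widest gap beside *Ifit3*, 48.0% against 5.17%.

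A further 24 genes of the pathway covered its ligands, receptors and signal transduction, and the transcription factors, feedback inhibitors and chemokines it induces. Against CD11c-selected macrophages 5 of 18 were 2-fold higher in CD8 T cells (*Ifng*, *Ifngr1*, *Irf1*, *Jak1*, *Socs1*), where 17.1% of all genes were, and 5 were lower (*Cxcl9*, *Ifnar2*, *Ifngr2*, *Irf8*, *Socs3*), where 22.4% were. Within the CD4/CD8 matrix 4 of each group remained, without *Irf1* and *Socs3*, close to the 23.6% and 22.4% of all genes, so the counts do not set the pathway apart. The receptor chains of IFN-γ were opposed. *Ifngr1*, the ligand-binding chain, stood at 884 CPM in CD8 T cells against 155 in CD11c-selected macrophages, while *Ifngr2* stood at 7.08 against 138. Of the type I ligands, *Ifnb1* stood at 3.72 CPM in CD11c-selected macrophages (278 UMIs) and 1.16 in macrophages of the CD4/CD8 matrix. *Ifna1*, *Ifna2* and *Ifna4* had at most 2 UMIs in either macrophage group. None of these 4 had a UMI in CD8 T cells, which allows a level of up to 0.0323 CPM (3 counts). Over the CD8 T cell runs 8 of 17 differed at least 2-fold, where 11.4% of all genes did, among them *Ifngr2*, *Stat2*, *Irf9*, *Irf7*, *Irf8*, *Ifng* and *Cxcl10*. *Ifng* stood at 157, 101, 207, 154, 84.3 and 147 CPM, highest in run 3 like the list. *Jak1*, a receptor-associated kinase, ranged from 358 to 408 CPM.

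Over the 12 combinations of matrix and type with at least 100 cells, the 5 genes whose level was most like the sum of the list included *Maf* (Pearson r = 0.90), *Rgcc* (0.89), *Ddit3* (0.89) and *Panx1* (0.87), out of 5924 genes ranked. The 12 points share matrices, runs and totals, and the correlations describe these points only.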

How the data were processed

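Single-cell RNA-seq (10x Genomics) was measured in 12 samples. Per the submitters' processing notes, Cell Ranger 3.0.2 and the mm10 build were used. Raw whole-number UMI counts were deposited by the authors, 1 matrix holding the 6 samples of a selection. The annotation and the cell filter before deposit were not given in the sources used here. The objects holding the authors' cell labels were not used here.

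Barcodes with under 200 detected genes were dropped (341 and 295), and doublets were not removed beyond cells that met 2 gates (96 and 35). T cells needed 2 UMIs of the Cd3 genes and macrophages 20 of the C1q genes. UMIs were summed over the cells of a type and divided by their total (CPM). Ratios had 1 UMI added to each sum, and a 2-fold ratio was called among genes with a mean of at least 5 CPM. Intervals are exact (Poisson, conditional binomial and Clopper-Pearson) and cover counting error only. The fold calls were checked on simulated counts. Python 3.11.15, numpy 2.4.6, scipy 1.17.1, pandas 2.3.3 and matplotlib 3.10.9 were used.

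The members and lists were chosen with earlier results of these data known. Genes named by run were the 5 with the widest range among those with a median of 20 UMIs per run, and genes named by type were those called or, in types under 100 cells, the highest ratios with at least 20 UMIs. Others were named for their role. The planned genotype comparison was not run, since no barcode could be assigned to a sample. Alternatives covered the gene minimum, mitochondrial cells, gates, totals, centering, the fold, shared barcodes, thinning and each run left out.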

Additional observations from a re-analysis of the deposited data

Results flagged for a closer look

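Over the 6 runs, 4 of 18 sets of values held a run far from the others, where the gap to the nearest run took most of the whole range (above Dixon's 95% critical value for 6 values). The usual chance rate of about 1 in 20 groups does not apply here, since the single genes were those with the widest range over the runs and runs are not known to be samples. The summed level in CD8 T cells was 5743 CPM in run 3, and the next run stood at 3633. *Ifit3b* in CD8 T cells stood at 22.4 CPM in run 3, with the next at 10.5. In CD11c-selected macrophages *Ifit2* stood at 6.41 CPM in run 4, where the next lowest run stood at 28.1. *Ifit3b*, below the minimum of 5 CPM in these macrophages, stood at 0.827 CPM (8 UMIs) in the same run, with the next lowest at 3.33. What sets these runs apart was not tested, and their genotype is not known.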

How the results depend on the processing

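Of 288 values computed under other settings, 255 stayed within 1.5 times the count, or within the interval of the share, and 33 did not. With 3-fold calls, 4 members were higher and 5 lower in CD8 T cells than in CD11c-selected macrophages, 7 were higher within the CD4/CD8 matrix, 3 were lower in T cells of the CD11c matrix, 40 were lower over the other myeloid types and 4 led in T cells. Over runs 10 members then differed in CD8 T cells, 7 in CD11c-selected macrophages and 16 in macrophages of the CD4/CD8 matrix. Doubled gate minimums also changed which cells counted as T cells, and gave 7 higher in the T cells of the CD11c matrix. In the 75 T cells of the main gates, both centered ratios and means over cells gave 14 lower. Leaving mitochondrial and ribosomal protein genes out of the totals gave 5 lower across matrices. Shares of cells moved with the cut. At 5 of 1000 UMIs they were 24.6% of CD8 T cells and 26.0% of CD11c-selected macrophages, and at 15 of 3000 UMIs 20.8% and 20.6%. At 20 of 2000 UMIs they were 8.59%, 4.73% and, for macrophages of the CD4/CD8 matrix, 3.24%. Without *Ifi27l2a* they were 11.9%, 10.4% and 8.79%, an alternative chosen after seeing the data, as were leaving out runs from the counts over runs and counting leading genes under each setting.

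With each run left out, the number lower in T cells of the CD11c matrix ranged from 6 to 18 (18 without run 1). Members differing over runs ranged from 9 to 26 in CD8 T cells (9 without run 3), from 3 to 16 in CD11c-selected macrophages (3 without run 4) and from 17 to 30 in macrophages of the CD4/CD8 matrix (17 without run 5). Shares of cells ranged from 18.5% to 24.1% in CD8 T cells, from 20.8% to 23.2% in CD11c-selected macrophages and from 16.9% to 21.4% in macrophages of the CD4/CD8 matrix. Members leading in T cells ranged from 8 to 10 and those leading in macrophages stayed at 6. No paired analysis was possible because barcodes of the 6 samples in a matrix carry no sample name, so the replicate block of the genotype comparison was not run. Cells of a type are not replicates, and the spread between mice could not be separated from that between runs.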

Other observations

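The summed level also differed between states of the same cell type, defined by marker genes chosen after the data were seen and read as ranges of a score rather than as types. Among CD8 T cells, those with *Pdcd1* (PD-1) and *Tcf7* (TCF1) but no *Havcr2* held 3595 CPM in 1217 cells, and cells with *Pdcd1* and *Havcr2* (TIM-3) but no *Tcf7* held 4103 CPM in 290 cells. In run 3 the *Pdcd1* and *Havcr2* cells reached 7165 CPM, with 2340 to 4720 in the other runs. The *Pdcd1* and *Tcf7* cells stood at 5690 in run 3 and 2393 to 3827 elsewhere. Cycling CD8 T cells (2 or more UMIs of *Mki67* or *Top2a*) held 3087 CPM in 1932 cells.

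Among CD11c-selected macrophages, cells with 3 or more UMIs of *Lyve1* or *Cd209f*, genes of perivascular and tissue-resident macrophages, held 5792 CPM in 244 cells. Over the runs these cells held 4429 to 6895 CPM, and they had under 5 UMIs of *Gpnmb* or *Trem2*. Macrophages with 10 or more UMIs of *Gpnmb* or *Trem2* (883 cells) held 3207 CPM. Those with 10 or more of *Thbs1* and under 5 of *Gpnmb* or *Trem2* (528 cells) held 2854 CPM. Both had under 3 UMIs of *Lyve1* or *Cd209f*, and all these cuts were raw counts, not scaled to depth. Over the runs the sums of the *Gpnmb* or *Trem2* cells and of the *Thbs1* cells ranged from 2331 to 3627 and from 2297 to 3157. The *Lyve1* or *Cd209f* cells stood above both of these states in every run. Most of the gap lay in the group of other induced genes, which includes *Ifi27l2a*, at 3460 CPM against 1172 in the *Gpnmb* or *Trem2* cells. The OAS family (473 against 192 CPM) went the same way, while the group of antiviral effectors that includes *Bst2* and *Rsad2* went the other way (818 against 1245). The median depth was 8344 UMIs in the *Lyve1* or *Cd209f* cells and 20802 in the *Gpnmb* or *Trem2* cells, and its part in the difference was not tested.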
